A study of Mus musculus with 9 samples.

Results

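The Wnt genes described here are 57 of the 21950 genes in the deposited table: every gene named as a numbered Wnt ligand or Frizzled (Fzd) receptor, plus 28 named secretion factors, inhibitors, surface regulators, cytoplasmic components and nuclear factors of the pathway. They comprise 19 ligands, 2 genes of ligand secretion, 10 receptors, 7 secreted inhibitors, 5 surface regulators, 10 cytoplasmic genes and 4 nuclear factors. They were measured by bulk RNA sequencing in MLE-12, a mouse lung epithelial line from lung tumours of SP-C/TAg transgenic mice, in which a surfactant promoter drives a viral oncogene. All cells were at passage 17 and were grown in DMEM with serum and antibiotics, so the oncogene is shared by every group. The 3 control libraries came from cells in regular medium. The 3 wild-type vesicle libraries came from cells given extracellular vesicles of lavage fluid from the lungs of wild-type mice injured with bleomycin, a drug that injures the lung. The 3 deficient vesicle libraries came from cells given such vesicles from bleomycin-injured mice that lack syndecan-1, a heparan sulphate proteoglycan of the cell surface. Vesicles of uninjured mice were not among the treatments, and against medium the vesicles and the injury of their donors cannot be told apart. The vesicle dose, the time of exposure and the age of the mice are not given in the sources used here.

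Wnt proteins are lipid-modified ligands that the carrier Wls brings to the cell surface and that Frizzled receptors bind together with Lrp5 or Lrp6. In the absence of ligand, a complex of Axin, Apc and Gsk3b marks beta-catenin (Ctnnb1) for destruction. Ligand binding recruits Dvl proteins and spares beta-catenin, which then acts with TCF and LEF factors on target genes, and in the lung this pathway is known for its part in branching and in alveolar repair. Secreted proteins such as Wif1, Dkk, Sfrp and Notum restrain it outside the cell, while Znrf3 and Rnf43 remove receptors from the surface.

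The start regions of 5 of these genes are shown because their values carry the results below: Wif1 and Wls had the largest rises and Wnt4 the largest fall of the tested Wnt genes on the log2(RPKM + 1) scale, and Fzd7 and Tcf7l2 are the tested genes whose window holds a TCF and LEF match. Each is the 250 bases before a RefSeq transcript start on build GRCm38.p6, read 5′ to 3′ on the gene's strand, with matches to the TCF and LEF core in capitals. The windows lie at chr10:121033754-121034003 for Wif1, chr3:159839400-159839649 for Wls, chr4:137277385-137277634 for Wnt4, chr1:59481897-59482146 for Fzd7 and chr19:55895071-55895320 for Tcf7l2, all on the plus strand.
Wif1: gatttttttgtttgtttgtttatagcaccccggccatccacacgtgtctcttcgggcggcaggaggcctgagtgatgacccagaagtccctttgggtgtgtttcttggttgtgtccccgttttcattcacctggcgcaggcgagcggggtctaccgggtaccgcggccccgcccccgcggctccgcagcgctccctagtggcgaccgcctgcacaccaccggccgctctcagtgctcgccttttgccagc
Wls: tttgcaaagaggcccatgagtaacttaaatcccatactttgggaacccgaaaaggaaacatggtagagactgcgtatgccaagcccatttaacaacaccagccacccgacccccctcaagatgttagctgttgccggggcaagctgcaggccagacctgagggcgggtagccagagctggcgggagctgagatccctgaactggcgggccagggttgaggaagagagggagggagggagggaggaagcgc
Wnt4: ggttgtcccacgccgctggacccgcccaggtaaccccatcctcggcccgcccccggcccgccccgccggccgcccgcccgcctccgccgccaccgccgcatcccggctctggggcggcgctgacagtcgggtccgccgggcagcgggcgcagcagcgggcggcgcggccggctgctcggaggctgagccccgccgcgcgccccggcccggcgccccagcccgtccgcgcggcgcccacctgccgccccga
Fzd7: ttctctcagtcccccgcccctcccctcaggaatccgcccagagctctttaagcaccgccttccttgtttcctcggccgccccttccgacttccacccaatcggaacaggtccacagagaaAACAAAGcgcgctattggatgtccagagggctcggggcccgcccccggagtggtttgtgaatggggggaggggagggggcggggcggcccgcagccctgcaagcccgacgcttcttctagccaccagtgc
Tcf7l2: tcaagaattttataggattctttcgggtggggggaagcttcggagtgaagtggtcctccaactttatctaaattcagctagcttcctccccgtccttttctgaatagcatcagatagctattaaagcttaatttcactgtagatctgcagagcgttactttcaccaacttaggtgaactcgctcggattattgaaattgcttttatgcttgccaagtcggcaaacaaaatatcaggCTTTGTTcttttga

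The core was searched as CTTTG followed by AA, AT, TA or TT on both strands of the 300-base window, which adds 50 bases after the start. The match in Fzd7 lay on the minus strand, 130 bases before the start. The match in Tcf7l2 lay on the plus strand, 14 bases before an internal start, and the window of its other start held none. Of the 57 Wnt genes 40 had a window in the RefSeq table used here, and 7 of these 40 (17.5%) held a match, against 18.9% of 27025 genes with a window. Those 7 were Dkk1, Fzd7, Lef1, Tcf7l2, Wnt3, Wnt5b and Wnt11. None of these letters were found in the windows of Wif1, Wls or Wnt4, which says nothing on TCF or LEF binding elsewhere.

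Levels were given as RPKM, reads scaled to transcript length and library total, and a gene was tested where its mean over the 9 libraries was at least 1 RPKM. Of the 57 Wnt genes 28 were tested, 23 lay under that level and 6 were at 0 in all libraries. Wif1 and Wnt10b passed only through the vesicle groups and Wnt4 only through the control group. Library totals, recovered from the steps of the values, ran from 24353257 to 33558660 reads. The labels do not say whether the libraries of a group came from separate cultures or vesicle preparations, so p-values measure only the spread between these samples. In the first 2 principal components of all tested genes, wild-type vesicle libraries 1 and 2 scored 14.4 and 17.2 on the second component, while library 3 scored -2.41 and the deficient libraries -6.82 to -13.3. Of 8 lung epithelial markers 4 had a mean of at least 1 RPKM. The surfactant genes Sftpb and Sftpc went from 12.3–15.3 and 8.36–9.23 RPKM in controls to 57.1–71.1 and 15.3–21.1 with vesicles, and Nkx2-1 from 22.4–24.8 to 33.1–41.9. Epcam was at 0 in all libraries, and Cdh1 went from 1.34–1.40 RPKM in controls to 0.120–0.189 RPKM with vesicles. The summed level of the 8 epithelial markers was 381 to 390 RPKM in controls, 282 to 311 with wild-type and 274 to 285 with deficient vesicles. Most of that sum was Krt8, which went from 333–342 to 153–187 RPKM. The summed level of 7 fibroblast markers was 272 to 281, 751 to 893 and 791 to 917 RPKM, with 3 of 7 at a mean of at least 1, Tcf21 at 0 in all libraries and Col3a1 at most 0.00623. Most of it was Dcn, at 192 to 200 RPKM in controls and 698 to 865 with vesicles. Pdgfra went from 1.08–1.14 to 4.79–5.62 RPKM, and Col1a1 went from 78.9–79.8 RPKM in controls to 43.2–48.0 with vesicles. The 8 macrophage markers summed to 1.88 to 2.59 RPKM in every library, with Marco and Chil3 at 0. The 3 erythroid markers summed to 0.536 to 1.84 RPKM in controls, 0.423 to 0.532 with wild-type vesicles and 1.63 to 10.5 with deficient vesicles, highest in deficient library 1. The part of these markers in the results below was not tested. In bulk RNA, fewer expressing cells and less RNA per cell cannot be told apart.

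With wild-type vesicles 21 of the 28 tested Wnt genes were called higher than in control and 3 lower, at a Benjamini-Hochberg adjusted p under 0.05 in limma. Of all 11125 genes tested, 45.0% were called higher and 30.0% lower in that comparison. With deficient vesicles 21 were called higher and 4 lower, where 48.8% of all genes tested were higher and 26.5% lower. The Wnt counts include Wif1, Wnt10b and Wnt4, each tested only through the side where it was high. The median log2 fold change of the 28 genes was 0.38 and 0.46 with wild-type and deficient vesicles, beside 0.09 and 0.13 over all genes tested. The calls that passed a log2 fold change of 1 in size were Wif1 and Wls, 2 higher and 0 lower in each comparison. For all genes these shares were 4.96% higher and 2.62% lower with wild-type vesicles, and 5.26% and 2.05% with deficient ones. Both comparisons share the control libraries, so their values stand side by side and are not independent. Lack of overlap was common: 46.9% of all genes tested lay wholly above and 31.3% wholly below control with wild-type vesicles. With deficient vesicles these shares were 51.4% and 29.5%, and for deficient against wild-type vesicles 21.1% and 11.2%. Statements below that groups did not overlap are to be read against these shares.

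The direction of the whole table depended on scaling, because rescaling the values by median-of-ratios size factors moved the median of all genes by -0.12 with wild-type and by -0.18 with deficient vesicles on the log2 scale. After rescaling, 20 of the 28 Wnt genes were called higher and 5 lower with wild-type vesicles, where 35.6% of all genes were higher and 40.4% lower. With deficient vesicles 17 were called higher and 6 lower, where 34.4% and 41.1% of all genes were. Axin1 lost its call with both vesicle types, and Apc, Fzd5 and Gsk3b lost theirs with deficient vesicles. Wnt7a fell in both comparisons only on the rescaled values, by 0.19 and by 0.30 on the log2 scale at limma adjusted p of 0.00756 and 0.00034.

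**Figure D1:**
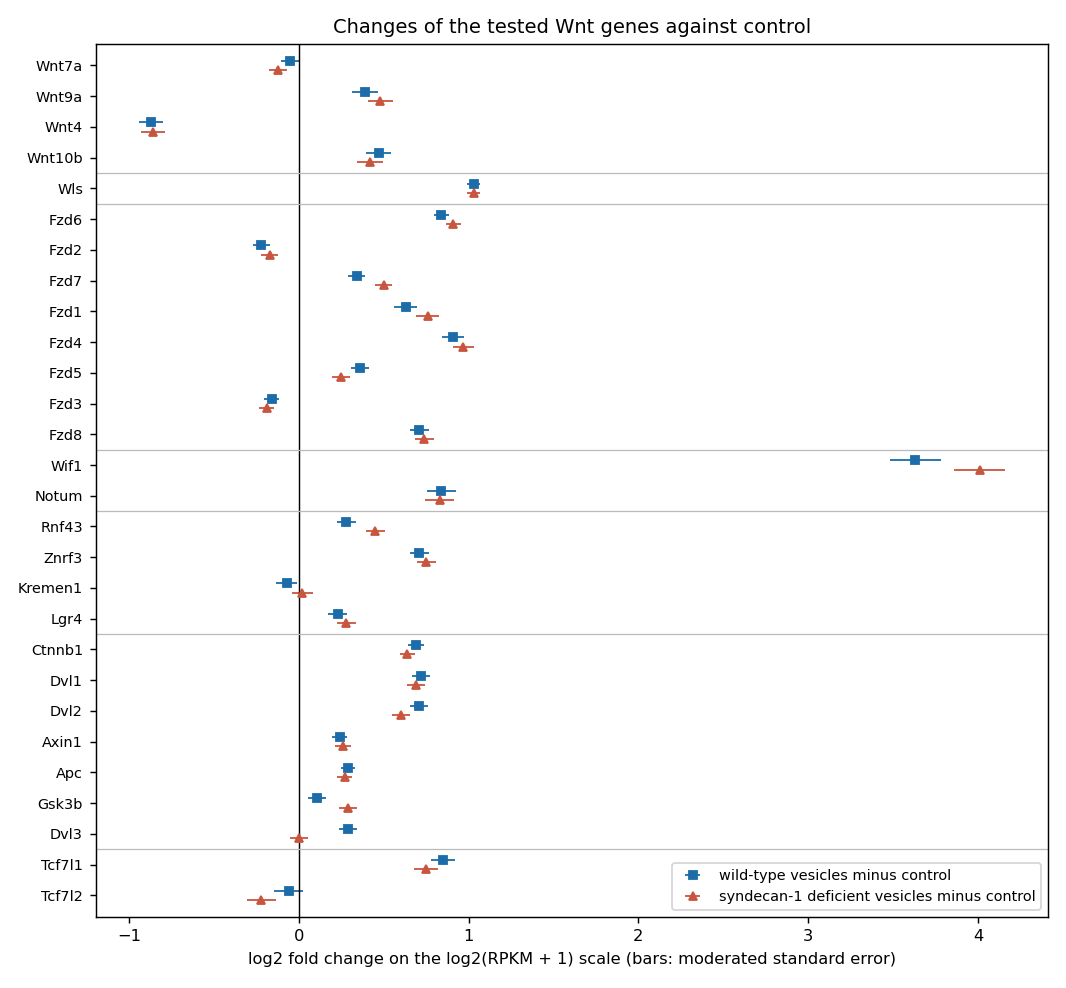
Log2 fold change (x axis, log2(RPKM + 1) scale) of each of the 28 tested Wnt genes (y axis, grouped by role) with wild-type vesicles (squares) and syndecan-1 deficient vesicles (triangles) against control. Bars are the moderated standard error. Wif1 stands at 3.63 and 4.01 and Wls at 1.03 in both comparisons, while Wnt4, at -0.87 and -0.86, is the lowest.

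Of the 19 ligand genes, 4 were tested, and both vesicle types left them with Wnt9a and Wnt10b higher, Wnt4 lower and Wnt7a not called. Wnt4, a ligand known from kidney and gonad development, was the tested Wnt gene with the largest fall. It lies on chromosome 4 at 137277489 to 137299726 (GRCm38, GENCODE M21). Wnt4 measured 2.42, 2.61 and 2.58 RPKM in the control libraries, 0.773, 0.998 and 1.07 RPKM with wild-type vesicles and 0.867, 0.918 and 1.08 RPKM with deficient vesicles. Every vesicle library lay under every control library, and the 2 vesicle groups overlapped. The log2 fold change was -0.87 ± 0.071 (standard error, n = 3 per group) with wild-type and -0.86 ± 0.071 with deficient vesicles, at limma adjusted p of 1.46e-06 and 1.53e-06. By ratio of mean RPKM this was 0.373 and 0.376 of the control level. Wnt4 was tested only through the control group, so its p and its place describe a gene that its control level brought into the tested set.

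Wnt7a, a ligand made by lung epithelium among other tissues, had the highest ligand level, 13 to 13.5 RPKM in controls, 11.7 to 13.3 with wild-type and 11.8 to 12.6 with deficient vesicles. Its limma adjusted p was 0.38 and 0.0655. The approximate 95% intervals of the log2 difference from control were -0.16 to 0.05 and -0.22 to -0.01. Such intervals, here and below, are a fixed multiple of the standard error and slightly too narrow for 3 libraries per group. Wnt9a rose from 2.60–3.19 RPKM in controls to 3.61–4.52 with wild-type and 4.31–4.46 with deficient vesicles, a log2 fold change of 0.39 ± 0.074 and 0.48 ± 0.074. Wnt10b, known from bone and mammary biology, rose from 0.664–0.730 RPKM to 1.21–1.43 and 1.03–1.42, a log2 fold change of 0.47 ± 0.076 and 0.42 ± 0.076. The limma adjusted p of Wnt9a and Wnt10b lay between 0.000179 and 0.000689. The 3 control values of each gene were all below its 6 vesicle values. Wnt10b was tested only through the vesicle groups, so its p describes a gene that its rise brought into the tested set.

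The other 15 ligands were under the tested level. Wnt2, Wnt8a and Wnt9b were at 0 in every library, where 3 reads would correspond to at most 0.0546, 0.0706 and 0.0273 RPKM. Wnt3, Wnt3a, Wnt5a, Wnt8b, Wnt11 and Wnt16 had at most 3 reads in any library, and Wnt5b and Wnt7b at most 8. To describe the low genes, reads recovered from the RPKM steps were fitted with voom in limma for each gene with at least 20 reads over the 9 libraries, an alternative added after seeing the data. Of the 13 low Wnt genes fitted, 2 were called higher and 1 lower with wild-type vesicles, where 42.1% of 14502 genes were called higher and 26.2% lower. With deficient vesicles 3 were called higher and 3 lower, where 46.4% and 23.2% of genes were.

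Wnt6, a ligand expressed in many epithelia, had 5, 8 and 3 reads in the control libraries, 9, 12 and 18 with wild-type and 23, 37 and 34 with deficient vesicles. In RPKM these were 0.0762, 0.109 and 0.0547 in controls, 0.169, 0.214 and 0.312 with wild-type and 0.367, 0.565 and 0.473 with deficient vesicles. The 3 groups did not overlap, and the deficient vesicle libraries were the highest. In the voom fit the log2 fold change was 1.44 ± 0.42 with wild-type vesicles, 2.44 ± 0.38 with deficient vesicles and 1.00 ± 0.31 between them, at adjusted p of 0.00873, 7.71e-05 and 0.0437. Wnt6 was the only low Wnt gene called between the vesicle types, 1 of 13 called higher and 0 lower, where 11.3% and 4.76% of genes were. In limma on log2(RPKM + 1) without a filter on low values, that last comparison had an adjusted p of 0.0574 and was not called.

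Wnt10a, a ligand known from skin and teeth, lies 6.2 kb from Wnt6 on chromosome 1 in the same orientation and went the other way. It had 19, 27 and 22 reads in controls, 7, 11 and 11 with wild-type and 11, 13 and 13 with deficient vesicles. All vesicle libraries lay under all control libraries, and the voom log2 fold change was -0.98 ± 0.30 and -0.89 ± 0.28 at adjusted p of 0.00994 and 0.0125. Wnt2b, known from lung specification in the embryo, had 20 to 24 reads in controls, 32 to 41 with wild-type and 30 to 46 with deficient vesicles. Its voom log2 fold change was 0.82 ± 0.25 and 0.73 ± 0.24, at adjusted p of 0.01 and 0.0156. Wnt10a and Wnt2b were chosen for display after their values were seen. Wnt1, the ligand first known as an oncogene of mouse mammary tumours, measured 0.633, 0.464 and 0.437 RPKM in controls, 0.466, 0.642 and 0.495 with wild-type and 0.485, 0.451 and 0.5 with deficient vesicles. The groups overlapped and neither fit called it, with a voom adjusted p of 0.805 and 0.759. Wnt1 lies 11.7 kb from Wnt10b on chromosome 15, so neighbours of this pair, as of Wnt6 and Wnt10a, were not called alike.

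**Figure D2:**
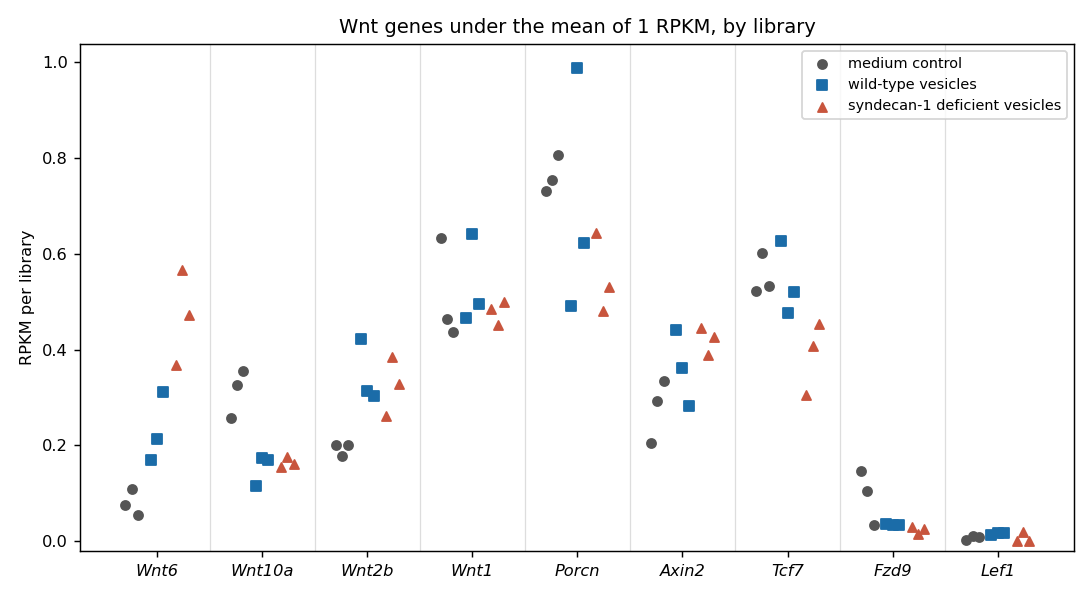
RPKM per library (y axis) of 9 Wnt genes under a mean of 1 RPKM (x axis): circles are controls, squares wild-type vesicles and triangles syndecan-1 deficient vesicles, each point 1 library. Wnt6 climbs from 0.0547–0.109 in controls to 0.367–0.565 with deficient vesicles, while Wnt10a drops from 0.257–0.356 to values of at most 0.176.

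Of the 2 genes of ligand secretion, Wls rose with both vesicle types to the same level. Wls, the membrane carrier that takes Wnt proteins from the Golgi to the surface, lies on chromosome 3 at 159839672 to 159938664. Wls measured 35.4, 35.7 and 35.0 RPKM in the control libraries, 73.9, 71.8 and 74.1 RPKM with wild-type vesicles and 75.1, 72.5 and 71.7 RPKM with deficient vesicles. The 6 vesicle values lay within 71.7 to 75.1 RPKM, far above the controls. The log2 fold change was 1.03 ± 0.037 in both comparisons (n = 3 per group), at limma adjusted p of 7.65e-09 and 7.19e-09, and 0.89 and 0.83 on the rescaled values. Between the vesicle types the approximate 95% interval of the log2 difference ran from -0.08 to 0.07. Porcn, the enzyme that adds the lipid to Wnt proteins, stayed under the tested level, at 0.730, 0.753 and 0.805 RPKM in controls, 0.491, 0.988 and 0.622 with wild-type and 0.644, 0.480 and 0.531 with deficient vesicles. Its deficient vesicle values were below all controls, but the voom log2 fold change of -0.47 ± 0.23 was not called at an adjusted p of 0.0779.

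Of the 10 Frizzled receptors 8 were tested, and with both vesicle types Fzd1, Fzd4, Fzd5, Fzd6, Fzd7 and Fzd8 rose while Fzd2 and Fzd3 fell. Fzd6, known from hair patterning and planar polarity, had the highest receptor level, followed in controls by Fzd2. Fzd6 measured 23.2, 24.2 and 22.2 RPKM in controls, 42.5, 42.8 and 41.4 with wild-type and 44.4, 45.8 and 42.8 with deficient vesicles. Its log2 fold change was 0.84 ± 0.043 and 0.91 ± 0.043, at limma adjusted p of 5.58e-08 and 3.47e-08. Fzd4, known as the Norrin receptor of retinal vessels, measured 3.86, 3.61 and 3.59 RPKM in controls, 7.62, 7.94 and 7.78 with wild-type and 9.12, 8.06 and 7.41 with deficient vesicles. This was the largest change of a tested receptor on the log2(RPKM + 1) scale, a log2 fold change of 0.91 ± 0.064 and 0.97 ± 0.064 at limma adjusted p of 5.01e-07 and 3.03e-07. All vesicle libraries of both genes lay above all controls. By ratio of mean RPKM Fzd4 was 2.11-fold and 2.22-fold higher than in control, and Fzd8 2.17-fold and 2.21-fold.

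Fzd1, a receptor for several canonical Wnt ligands, measured 6.52, 6.75 and 6.48 RPKM in controls, 9.98, 10.5 and 11.9 with wild-type and 11.0, 12.8 and 11.9 with deficient vesicles. Its log2 fold change was 0.63 ± 0.067 and 0.76 ± 0.067, at limma adjusted p of 1.07e-05 and 2.58e-06, with no overlap between controls and vesicle libraries. Fzd8 rose from 1.16–1.26 RPKM to 2.41–2.86 and 2.63–2.79, and Fzd5 from 3.92–4.19 to 5.40–5.64 and 4.61–5.32. For Fzd8 the log2 fold change was 0.71 ± 0.057 and 0.74 ± 0.057. For Fzd5 it was 0.36 ± 0.053 and 0.25 ± 0.053, and 17.8% of the exonic length of Fzd5 overlapped Gm38058 on the opposite strand. The kit was stranded, but whether the counting used the strand is not given in the sources used here, so reads of such pairs cannot be told apart.

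The 2 receptors that fell did so by little. Fzd2, a receptor linked to Wnt5a signals, went from 17.3–18.3 RPKM in controls to 14.7–15.4 and 14.6–16.6, a log2 fold change of -0.22 ± 0.050 and -0.17 ± 0.050 at limma adjusted p of 0.00223 and 0.00999. Fzd3, which guides axons, went from 4.0–4.07 RPKM to 3.38–3.61 and 3.37–3.44, a log2 fold change of -0.16 ± 0.042 and -0.19 ± 0.042 at limma adjusted p of 0.00626 and 0.00198. Neither gene's control values overlapped its vesicle values. Fzd9 had 10, 8 and 2 reads in controls and 1 or 2 in each vesicle library, and Fzd10 was at 0 in all libraries, where 3 reads would be at most 0.0379 RPKM. Fzd9 was called lower with deficient vesicles alone in the voom fit, at adjusted p of 0.0235 against 0.0927 with wild-type vesicles, and the difference between vesicle types had an adjusted p of 0.63.

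**Figure D3:**
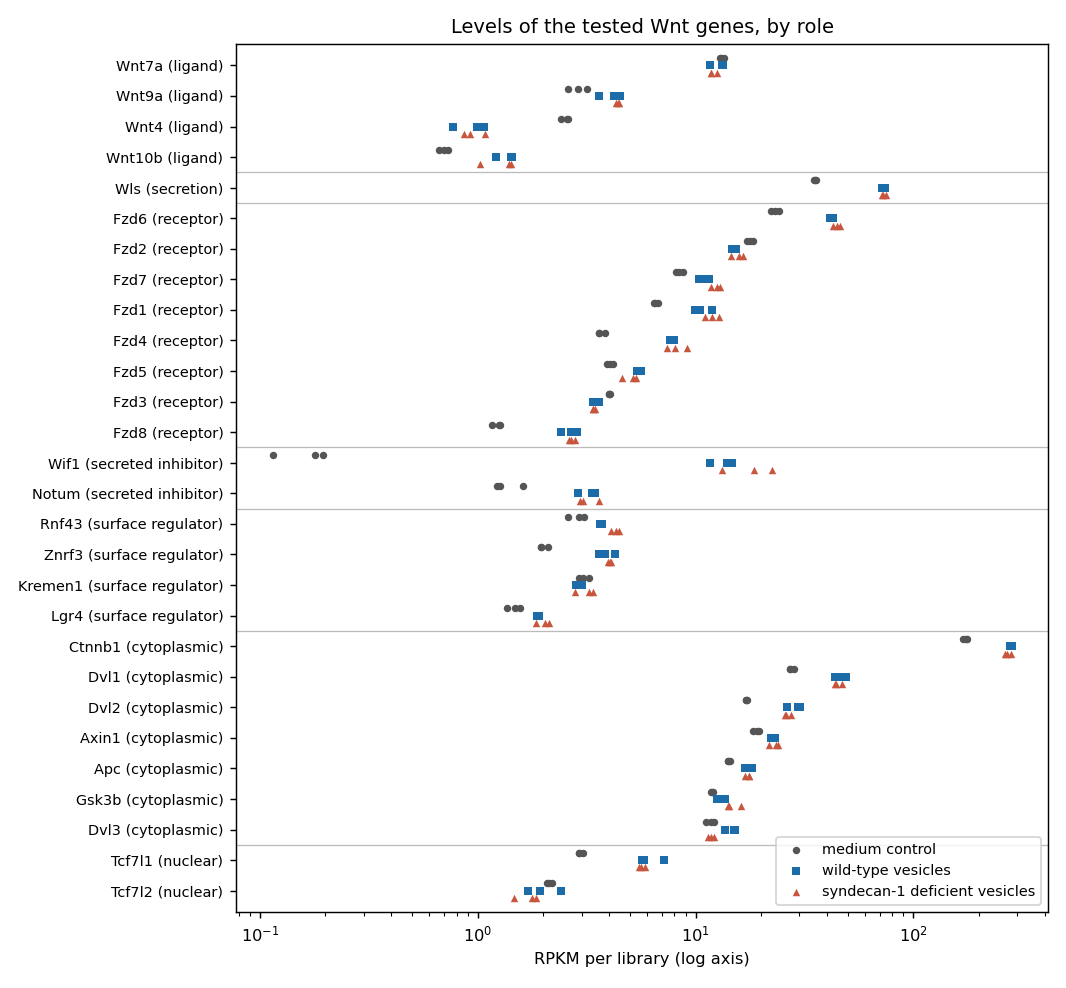
RPKM per library on a log axis (x axis) of the 28 tested Wnt genes (y axis, by role and then by mean level): circles are controls, squares wild-type vesicles and triangles syndecan-1 deficient vesicles. Ctnnb1 is highest at 168–282 RPKM, and Wif1 shows the widest gap, from 0.115–0.196 RPKM in controls to at least 11.7 RPKM with vesicles.

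Of the 7 secreted inhibitors, Wif1 and Notum were tested and both rose, while the Dkk and Sfrp genes were at or near 0. Wif1, which binds Wnt ligands outside the cell and keeps them from their receptors, had the largest change of all Wnt genes. It lies on chromosome 10 at 121033960 to 121100650. Wif1 measured 0.179, 0.196 and 0.115 RPKM in the control libraries, 14.0, 14.7 and 11.7 RPKM with wild-type vesicles and 22.4, 18.6 and 13.2 RPKM with deficient vesicles. In reads this was 13, 16 and 7 in controls, 825, 910 and 745 with wild-type and 1557, 1346 and 1054 with deficient vesicles. By ratio of mean RPKM it was 82.1-fold and 111-fold higher than in control. The log2 fold change was 3.63 ± 0.15 and 4.01 ± 0.15 (n = 3 per group), at limma adjusted p of 1.49e-08 and 8.27e-09, and ranked 3 and 2 from the top among 11125 genes. Wif1 was tested only through the vesicle groups, so its p and rank describe a gene that its rise brought into the tested set. On this scale the pseudocount of 1 understates the change of a gene this low in controls.

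Between the vesicle types the Wif1 values overlapped, since deficient library 3, at 13.2 RPKM, lay within the wild-type range. The log2 difference of 0.38 ± 0.15 had a limma adjusted p of 0.0964 and an approximate 95% interval of 0.08 to 0.68. It was not called in any of 18 alternatives, with adjusted p from 0.0604 to 0.484. Deficient library 1, the highest for Wif1, was also the highest for erythroid markers, and the part of this was not tested. No annotated gene overlapped the exons of Wif1, and none of its sequence was shared with other transcripts.

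Notum, an enzyme that removes the lipid from Wnt proteins, measured 1.26, 1.23 and 1.61 RPKM in controls, 3.36, 2.89 and 3.47 with wild-type and 3.61, 2.95 and 3.04 with deficient vesicles. All vesicle values were above all controls, and the log2 fold change was 0.84 ± 0.086 and 0.83 ± 0.086 at limma adjusted p of 7.57e-06 and 8.5e-06. Of its exonic length, 38.1% overlapped the opposite-strand genes Notumos and Myadml2os, which were not analysed here, so its reads cannot be told apart from theirs. Dkk1 and Dkk2, which block the co-receptors, were at 0 in all libraries, where 3 reads would be at most 0.0508 and 0.0332 RPKM. Dkk3 had 7 and 3 reads in deficient libraries 1 and 3 and at most 1 elsewhere. Sfrp1 and Sfrp2, secreted decoys that resemble Frizzled, had at most 3 reads in any library.

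Of the 5 surface regulators, Znrf3, Rnf43 and Lgr4 rose with both vesicle types and Kremen1 was not called. Znrf3 and Rnf43 are ubiquitin ligases that take Frizzled receptors from the surface, and Lgr4 is the R-spondin receptor that holds them back. Znrf3 measured 1.95 to 2.11 RPKM in controls, 3.60 to 4.26 with wild-type and 3.97 to 4.11 with deficient vesicles, a log2 fold change of 0.71 ± 0.056 and 0.75 ± 0.056 at limma adjusted p of 1.24e-06 and 7.94e-07. Rnf43 measured 2.61 to 3.09, 3.65 to 3.73 and 4.08 to 4.46 RPKM, a log2 fold change of 0.28 ± 0.055 and 0.45 ± 0.055 at limma adjusted p of 0.000916 and 3.04e-05. Its 3 groups did not overlap, and its difference between vesicle types of 0.17 ± 0.055 had an adjusted p of 0.0553 and was not called. Lgr4 measured 1.37 to 1.57, 1.87 to 1.92 and 1.85 to 2.12 RPKM, a log2 fold change of 0.23 ± 0.055 and 0.28 ± 0.055. Kremen1, a Dkk receptor that lies 14.8 kb from Znrf3 on chromosome 11, measured 2.93 to 3.26, 2.83 to 3.00 and 2.81 to 3.40 RPKM. Its groups overlapped, with limma adjusted p of 0.332 and 0.76, and on the rescaled values it was called lower with wild-type vesicles at -0.18. Lgr5, a receptor known as a stem cell marker in the gut, had 15 to 21 reads in controls and 7 to 17 with vesicles, and was not called in the voom fit.

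Among the 10 cytoplasmic genes 7 were tested, and Ctnnb1, Dvl1, Dvl2, Axin1 and Apc rose with both vesicle types. Ctnnb1, which encodes beta-catenin, measured 168, 175 and 176 RPKM in controls, 282, 281 and 278 with wild-type and 263, 269 and 279 with deficient vesicles. It was the most abundant of the Wnt genes, all vesicle libraries lay above all controls, and the log2 fold change was 0.69 ± 0.045 and 0.64 ± 0.045 at limma adjusted p of 2.91e-07 and 5.03e-07. Of its exonic length 15.1% overlapped other genes, most of it Ulk4 on the opposite strand, which measured 4.49 to 5.37 RPKM in controls, 4.68 to 7.46 with wild-type and 7.40 to 10.4 with deficient vesicles. Dvl1, an adaptor that binds activated Frizzled, measured 27.1, 27.2 and 28.3 RPKM in controls, 45.4, 43.5 and 49.0 with wild-type and 47.2, 44.0 and 43.6 with deficient vesicles. Its groups did not overlap with control, and the log2 fold change was 0.72 ± 0.052 and 0.69 ± 0.052 at limma adjusted p of 6.18e-07 and 8.64e-07. Dvl2, its close relative, measured 17.0 to 17.2 RPKM in controls, 26.3 to 30.2 with wild-type and 25.7 to 27.3 with deficient vesicles, a log2 fold change of 0.71 ± 0.053 and 0.60 ± 0.053. Of its exonic length 19.7% overlapped other genes, most of it Acadvl on the opposite strand, which stayed at 28.0 to 32.4 RPKM in all libraries.

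Members of the destruction complex moved less. Apc, the scaffold lost in colon cancer, went from 14.1–14.4 RPKM in controls to 16.8–18.2 and 16.8–17.6, a log2 fold change of 0.29 ± 0.042 and 0.27 ± 0.042. Axin1, the limiting scaffold, went from 18.4–19.5 RPKM to 22.3–23.1 and 21.7–24, a log2 fold change of 0.24 ± 0.046 and 0.26 ± 0.046. Both genes were called in limma at adjusted p of 9.66e-05 to 0.000643, but on the rescaled values Axin1 was at 0.11 and 0.07 and Apc at 0.08 with deficient vesicles, not called. Axin2, a feedback inhibitor often read as a reporter of beta-catenin activity, stayed under the tested level at 0.206 to 0.334 RPKM in controls, 0.283 to 0.440 with wild-type and 0.389 to 0.444 with deficient vesicles. Its recovered reads numbered 34, 54 and 46 in controls, 59, 51 and 41 with wild-type and 70, 64 and 77 with deficient vesicles. In the voom fit Axin2 was called higher with deficient vesicles, at 0.63 ± 0.21 and adjusted p of 0.0169, while with wild-type vesicles the value was 0.39 ± 0.22 at adjusted p of 0.141. The difference between vesicle types was 0.24 ± 0.20 at adjusted p of 0.441. Nkd1, another feedback inhibitor, had 2 reads in deficient library 3 and 0 elsewhere, and Nkd2 had 5 to 19 reads per library. Nkd2 was not called by voom, with adjusted p of 0.0621 and 0.704, but limma on log2(RPKM + 1) without a filter called it higher with wild-type vesicles at adjusted p of 0.0493.

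Of the 28 tested Wnt genes 2 were called higher and 1 lower with deficient than with wild-type vesicles, where 12.9% of all genes were called higher and 5.43% lower. On the rescaled values 0 were called higher and 1 lower, where 6.98% and 9.74% of all genes were. Dvl3, the third Dvl adaptor, measured 12.1, 11.2 and 11.8 RPKM in controls, 15.0, 15.2 and 13.6 with wild-type and 12.1, 11.4 and 11.8 with deficient vesicles. It rose with wild-type vesicles, by 0.29 ± 0.052 on the log2 scale at limma adjusted p of 0.00042. With deficient vesicles it stood at control levels, at 0.00 ± 0.052 with an approximate 95% interval of -0.10 to 0.11. On the rescaled values it was instead called lower than control there, at -0.18 ± 0.058 and limma adjusted p of 0.016, beside 0.16 ± 0.058 with wild-type vesicles. The difference between vesicle types was -0.29 ± 0.052 at limma adjusted p of 0.0255.

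Gsk3b, the kinase that marks beta-catenin, measured 11.9, 12 and 11.8 RPKM in controls, 12.5, 12.8 and 13.6 with wild-type and 14.1, 16.1 and 14.3 with deficient vesicles. The 3 groups did not overlap, and the difference between vesicle types was 0.18 ± 0.053 at limma adjusted p of 0.0442. Against control it was 0.29 ± 0.053 with deficient vesicles at adjusted p of 0.000574 and 0.11 ± 0.053 with wild-type vesicles at adjusted p of 0.084. Fzd7, a receptor used in embryonic and tumour Wnt signals, measured 8.39, 8.79 and 8.17 RPKM in controls, 11.5, 10.4 and 10.9 with wild-type and 12.5, 12.9 and 11.8 with deficient vesicles. It rose with both vesicle types, by 0.34 ± 0.050 and 0.50 ± 0.050 at limma adjusted p of 0.000128 and 6.97e-06, and differed between them by 0.16 ± 0.050 at limma adjusted p of 0.05, just under the threshold.

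These differences between vesicle types depended on which libraries were used. Without wild-type library 1 Dvl3 stood at -0.27, Gsk3b at 0.16 and Fzd7 at 0.20, and without wild-type library 2 at -0.26, 0.17 and 0.13, none of them called in limma. Without deficient library 2 they stood at -0.27, 0.13 and 0.14, and without deficient library 3 at -0.29, 0.20 and 0.19, again not called. Gsk3b at 0.18 and Fzd7 at 0.16 also lost their calls without any 1 of the 3 control libraries, and Fzd7 did without deficient library 1, at 0.16. With wild-type library 3 left out, all 3 kept their calls and the count was 4 higher and 3 lower. The share of all genes called in that fit is not given here, so the count cannot be read as particular to the Wnt genes. Without wild-type libraries 1 and 2 together, 0 were called in either direction.

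**Figure D4:**
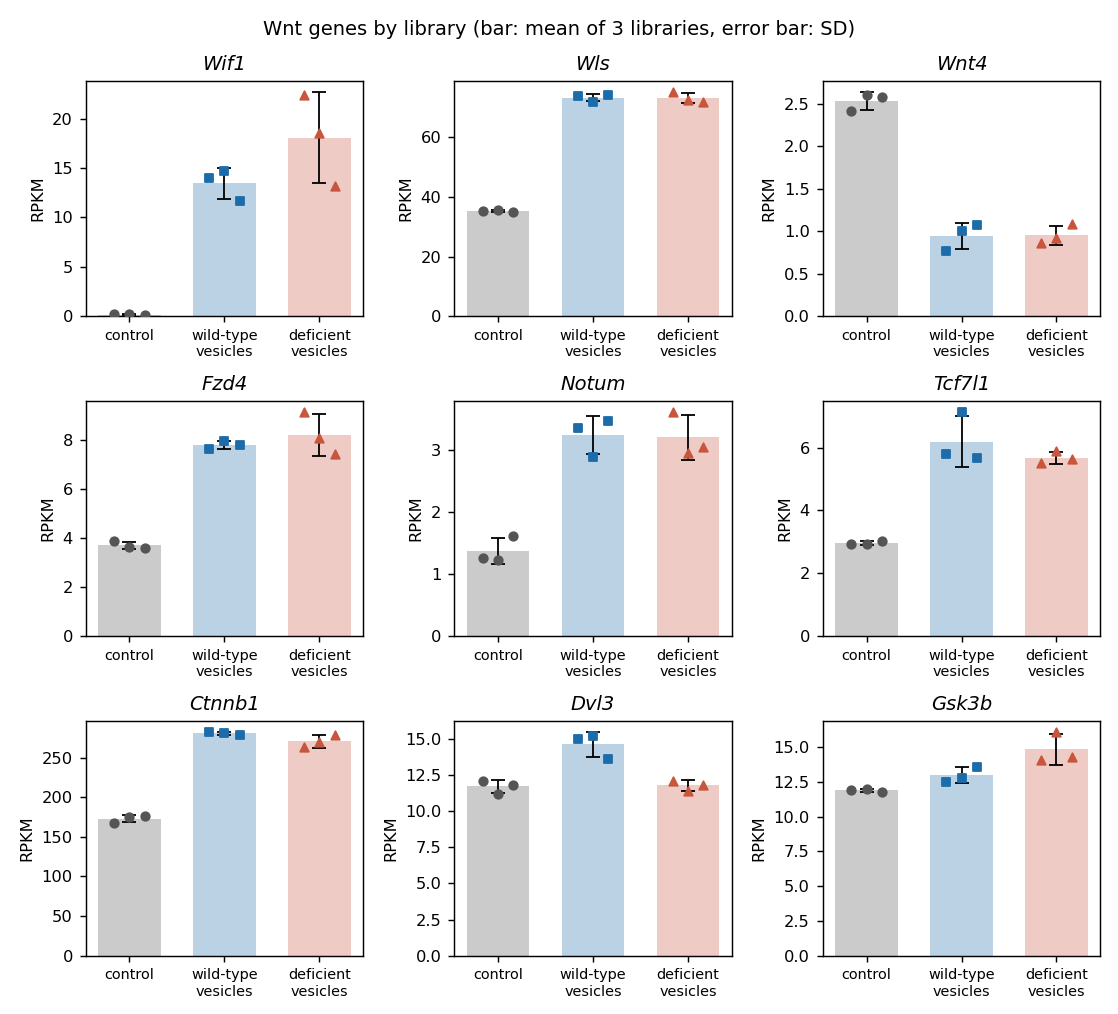
RPKM (y axis, from 0) of 9 Wnt genes in the medium control, wild-type vesicle and syndecan-1 deficient vesicle libraries: bars are means of 3 libraries, error bars the SD, points the libraries. Dvl3 is raised in the wild-type vesicle libraries alone (13.6 to 15.2 RPKM against 11.2 to 12.1 in the others), whereas Wls reaches 71.7 to 75.1 RPKM with either vesicle type.

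Of the 4 nuclear factors 2 were tested. Tcf7l1, a TCF factor known chiefly as a repressor, measured 2.92, 2.92 and 3.03 RPKM in controls, 5.78, 7.13 and 5.66 with wild-type and 5.52, 5.89 and 5.62 with deficient vesicles. All vesicle libraries lay above all controls, and the log2 fold change was 0.85 ± 0.071 and 0.75 ± 0.071 at limma adjusted p of 1.72e-06 and 4.34e-06. Tcf7l2, the TCF factor of gut epithelium, measured 2.09 to 2.20 RPKM in controls, 1.70 to 2.40 with wild-type and 1.47 to 1.86 with deficient vesicles. It was called lower with deficient vesicles, at -0.22 ± 0.086 and limma adjusted p of 0.0382, and not with wild-type vesicles, at -0.06 and adjusted p of 0.507. The difference between the vesicle types was -0.15 at adjusted p of 0.21. Its call was lost without any 1 of the 3 control libraries, at -0.21, -0.22 and -0.23, and without deficient library 1 or 2, at -0.16 and -0.24. It was also lost without a filter on low values, at a limma adjusted p of 0.0687. On the rescaled values Tcf7l2 was at -0.35 ± 0.088 with deficient vesicles, called at limma adjusted p of 0.00411. With wild-type vesicles it was at -0.16 there, at adjusted p of 0.117. Tcf7, known from T cells, measured 0.522, 0.602 and 0.533 RPKM in controls, 0.626, 0.477 and 0.521 with wild-type and 0.306, 0.408 and 0.453 with deficient vesicles. The deficient vesicle values were the lowest, called in the voom fit at -0.51 ± 0.21 with adjusted p of 0.0484. Lef1, a factor raised by Wnt signals in many tissues, had 0 to 5 reads in any library.

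Other genes of the pathway were described from 8 lists with 146 names, of which 144 were in the table and 99 were tested. With wild-type vesicles 44 of the 99 were called higher and 29 lower, and with deficient vesicles 45 higher and 26 lower. Over all genes tested these shares were 45.0% and 30.0% with wild-type and 48.8% and 26.5% with deficient vesicles, against which the counts of each list below are also to be read. Between vesicle types 12 were higher and 8 lower, where 12.9% and 5.43% of all genes were. On the rescaled values the split was 36 higher and 39 lower with wild-type, 30 and 40 with deficient vesicles, and 4 and 14 between them. The shares of all genes on those values were 35.6% and 40.4%, 34.4% and 41.1%, and 6.98% and 9.74%. The median log2 fold change of the 99 was 0.10 in both control comparisons, beside 0.09 and 0.13 over all genes.

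**Figure D5:**
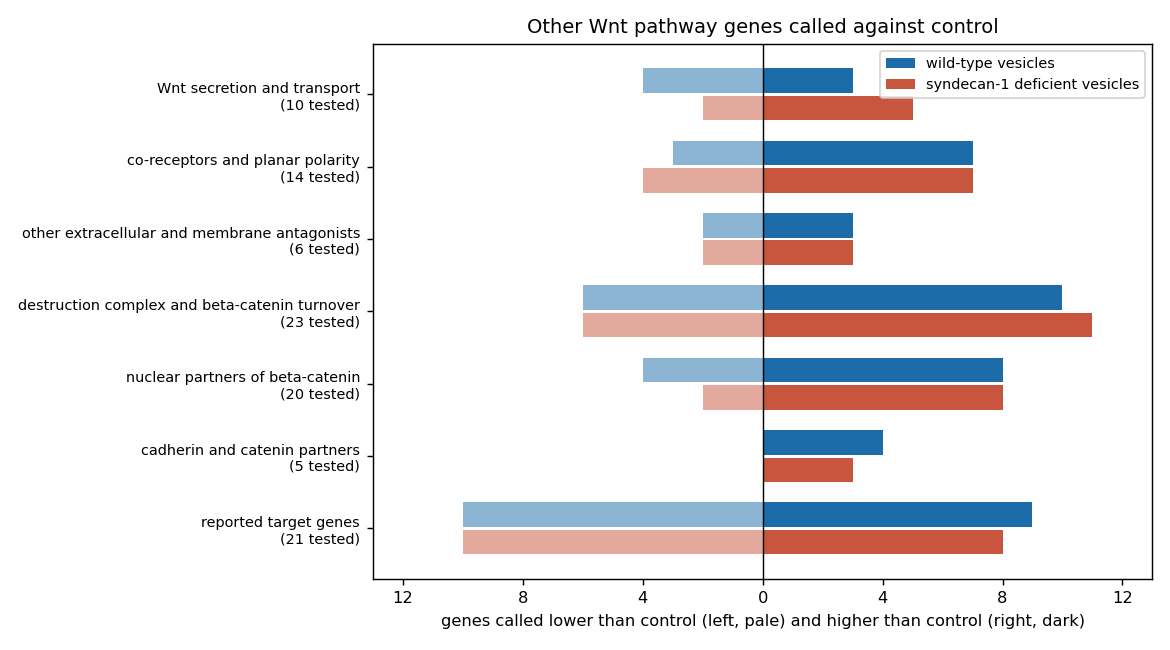
Number of genes called (x axis) lower than control (left, pale) and higher than control (right, dark) in 7 lists of other Wnt pathway genes (y axis), with wild-type vesicles (upper bar of each pair) and syndecan-1 deficient vesicles (lower bar). Reported target genes are split, 9 higher and 10 lower with wild-type and 8 and 10 with deficient vesicles.

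Of 10 tested genes of secretion and transport, 3 rose and 4 fell with wild-type vesicles, and 5 rose and 2 fell with deficient ones. Vps26a and Vps29, retromer subunits that recycle Wls, rose from 21.2–23.0 RPKM to 38.6–48.8 and from 19.6–20.2 to 28.0–30.2. Their log2 fold changes were 0.81 and 0.99 for Vps26a and 0.56 and 0.51 for Vps29. Vps35, the remaining core subunit, was called higher with deficient vesicles alone, at 0.21 and limma adjusted p of 0.00978, against 0.01 with wild-type vesicles. It differed between them by 0.21 at limma adjusted p of 0.0462, a call lost without a filter or with only the 2 groups compared. Rescaling moved the median of all genes by -0.18 with deficient vesicles, and the rescaled value of Vps35 is not given here. Gpc4, a glypican that binds Wnt proteins, rose by 0.73 and 0.92 on the log2 scale.

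Of 14 tested co-receptors and planar polarity genes, 7 rose and 3 fell with wild-type vesicles and 7 rose and 4 fell with deficient ones. Tspan12, which assists Fzd4, rose from 7.28–7.37 RPKM to 13.8–15.4 and 18.1–21, a log2 fold change of 0.89 and 1.27. Reck, a membrane partner of Wnt7 ligands, rose from 1.25–1.51 RPKM to 4.58–5.65 and 4.61–5.13, a log2 fold change of 1.34 and 1.31. Its partner Adgra2 fell by 0.89 and by 0.76 on the log2 scale. Ptk7 rose by 0.86 and 0.87. The co-receptor Lrp5 measured 11.4 to 12.1 RPKM in controls, 23.8 to 30.0 with wild-type and 21.2 to 23.6 with deficient vesicles. Its log2 fold change was 1.13 and 0.85, whereas Lrp6 was not called at 0.07 and 0.02. Between vesicle types 1 of the 14 genes was called higher and 1 lower, where 12.9% and 5.43% of all genes were. These were Tspan12 at 0.39 (limma adjusted p of 0.0255) and Lrp5 at -0.29 (limma adjusted p of 0.0349). The call of Tspan12 was lost in 8 of 18 alternatives. Vps35, Adgra2, Lrp5 and Lrp6 were chosen for display after their values were seen. None of Rspo1, Rspo2, Rspo3, Rspo4 and their receptor Lgr6 was tested. Rspo3 went from 0.0167–0.0279 RPKM in controls to 0.196–0.331 with vesicles, and Lgr6 from 0.0683–0.113 to 0.371–0.518, both without a test.

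Of 6 tested further antagonists, 3 rose and 2 fell with each vesicle type. Sost, which binds Lrp5 and Lrp6 and is known from bone, rose from 0.368–0.577 RPKM to 4.19–5.51 and 4.30–4.67, a log2 fold change of 2.05 and 1.93. With a control mean of 0.45 RPKM it was tested only through the vesicle groups, as were Pygo1, Tcf4 and Mitf of the lists below, while Edn1 was tested only through the controls. Apcdd1, a membrane inhibitor, fell from 28.3–30.5 RPKM to 7.88–8.72 and 6.93–9.88, a log2 fold change of -1.73 and -1.67. Shisa2, a relative of the frog protein Shisa that holds Frizzled inside the cell, rose by 0.56 and 0.50.

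Of 23 tested genes of the destruction complex and of beta-catenin turnover, 10 rose and 6 fell with wild-type and 11 rose and 6 fell with deficient vesicles. Ccdc88c, a Dvl-binding protein, rose by 0.62 and 0.64 on the log2 scale, and Siah1a, a ubiquitin ligase, by 0.56 and 0.58. Usp7, a deubiquitinase, fell by 0.36 and by 0.42. Of 20 nuclear partners of beta-catenin 8 rose and 4 fell with wild-type vesicles, and 8 rose and 2 fell with deficient ones. The Groucho corepressor Tle2 rose by 1.12 and 0.92, Tle3 by 0.52 and 0.43, and the acetyltransferase Ep300 by 0.55 and 0.44.

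Of 5 tested cadherin and catenin partners 4 rose with wild-type and 3 with deficient vesicles, and 0 were called lower. Cdh1, or E-cadherin, belongs to the same list, but its levels with vesicles, 0.120 to 0.189 RPKM against 1.34 to 1.40 in controls, put its mean under the tested level. Cdh2, or N-cadherin, rose from 11.2–12 RPKM to 18.6–20.9 and 18.3–18.8, a log2 fold change of 0.74 and 0.63. Ctnnd1 rose by 0.28 and 0.22 and Ctnna1 by 0.30 and 0.17, but with deficient vesicles both lost their calls after rescaling, where Ctnna1 stood at -0.03. Of 21 tested genes reported elsewhere as Wnt targets, 9 rose and 10 fell with wild-type and 8 rose and 10 fell with deficient vesicles. Ccnd1, or cyclin D1, fell from 140.0–145 RPKM to 31.1–32.5 and 27.3–29.4, a log2 fold change of -2.13 and -2.28 at limma adjusted p of 4.2e-10 and 2.71e-10. Ccnd2 fell from 19.1–19.5 RPKM to 3.66–3.76 and 3.12–4.46, and Plaur, the urokinase receptor, from 10.1–11.7 to 2.62–2.83 and 1.93–2.75. Genes of this list that rose included Bambi, at 0.78 and 1.01, and Sox9, at 0.98 and 0.92, both chosen for display after their values were seen.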

How the data were processed

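Total RNA (Trizol) went into stranded mRNA libraries, per the labels' protocols. TopHat2 2.0.7 and build GRCm38 (mm10) are named in the submitters' processing notes; the read counter and its annotation are not given in the sources used here. The authors deposited 1 table of RPKM values, with 3 libraries in each of 3 groups and 0 further value columns. The control columns carry no sample name of their own and were taken as a group. Tests used limma 3.58.1 (R 4.3.3, trend) on log2(RPKM + 1), 9 libraries in 1 fit, genes with a mean of at least 1 RPKM, Benjamini-Hochberg adjustment over 11125 genes and a threshold of 0.05, two-sided. Fold changes on this scale understate those of low genes.

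RPKM steps gave whole reads for 18201 of 18207 genes above 0 (99.97%, tolerance 0.0001), used for voom. The fit was also run on counts simulated for independent libraries, and the outcome is not given here. Independent counts cannot show how well the p-values hold if libraries of a group share a source. No label says that equal replicate numbers mark a shared batch, and the main fit used no pairing. Identifiers of 21748 genes matched GENCODE M21. The text gives values per library for the Wnt genes with the 8 largest changes against control with either vesicle type, those called between vesicle types, Wif1, Ctnnb1 and low genes with at least 0.5 RPKM in 1 library, and up to 3 called genes with the smallest p per list. The Wnt genes and lists were chosen with earlier results of these data known. Alternatives were another pseudocount (0.1), no filter, a mean of at least 5 RPKM, rescaling by size factors, voom, a replicate block, only the groups compared, and leaving out libraries.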

Additional observations from a re-analysis of the deposited data

Results flagged for a closer look

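Of the 28 tested Wnt genes 3 had a called difference between the vesicle types, 2 higher and 1 lower with deficient vesicles. Of all genes tested, 12.9% were called higher and 5.43% lower in that comparison, so such calls were not particular to the Wnt genes. Dvl3 differed by -0.29 on the log2 scale, Gsk3b by 0.18 and Fzd7 by 0.16, each as deficient minus wild-type vesicles and each by limma's test of that difference. Dvl3 was above control with wild-type vesicles alone, while Gsk3b and Fzd7 were highest with deficient vesicles. Their calls changed with the libraries used, and no explanation was tested.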

How the results depend on the processing

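For the Wnt genes, 837 of 882 alternative values of called results (and of Wif1 between vesicle types) kept their direction and side of the threshold, 45 lost a call and 0 reversed; with the named pathway genes the numbers were 1561 of 1639, 77 and 1. The reversal was Ctnna1 with deficient vesicles, at -0.0275 after median-of-ratios rescaling. The losses were not spread evenly. Between vesicle types, calls were lost in 8 of 18 alternatives for Dvl3, 12 of 18 for Gsk3b and 14 of 18 for Fzd7. Tcf7l2 with deficient vesicles lost its call in 6 of 16. The 18 values of Wif1 between vesicle types, never called, are counted among those kept. At a mean of at least 5 RPKM, where fewer genes are tested, 12 Wnt genes were higher and 1 lower in each control comparison. The shares of all genes called under that filter are not given here, so these counts cannot be read as particular to the Wnt genes. With a log2 fold change of at least 1, 2 Wnt genes were higher and 0 lower in each control comparison and 0 between vesicle types. Of the 99 other pathway genes 5 were higher and 5 lower with wild-type, 6 and 6 with deficient vesicles and 0 between them. Over all genes tested these shares were 4.96% higher and 2.62% lower with wild-type vesicles, and 5.26% and 2.05% with deficient ones. The share between vesicle types at that size is not given here. After rescaling, 5 Wnt genes were lower with wild-type vesicles and 0 higher between vesicle types. Other pathway genes were lower in 40 cases with deficient vesicles, and 4 were higher and 14 lower between vesicle types. Of all genes tested, 40.4% were lower with wild-type and 41.1% with deficient vesicles on those values. Between vesicle types 6.98% were higher and 9.74% lower. The added voom fit, which takes in 13 low Wnt genes besides the 28 tested, called 7 Wnt genes lower with deficient vesicles, where 23.2% of 14502 genes were. Between vesicle types, a pseudocount of 0.1 left 1 Wnt gene higher. No filter, a replicate block, only the 2 groups compared, and leaving out wild-type libraries 1 and 2 together each left 0 Wnt genes and 0 other pathway genes in either direction. Leaving out 1 library gave 0 to 4 Wnt genes higher and 0 to 3 lower between vesicle types, and 0 to 19 and 0 to 17 other pathway genes. Shares of all genes called in those fits are not given here, so these counts show only that the calls moved. The cause was not tested. The replicate block could be fitted only between the vesicle types, since the control columns carry no sample. Same-numbered libraries had deviations from their group mean correlated at 0.11, -0.127 and 0.036. Such deviations sum to 0 within a group of 3, so they cannot settle whether equal numbers mark a shared batch. For Wnt genes with a few reads per library, small changes were not detectable at this depth.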
